A study of Mus musculus with 2 samples.

Results

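The adrenal gland profile holds 7 microRNA genes known from blood and immune cells: Mir142, Mir150, Mir155, Mir223, Mir146, Mir146b and Mir342. They were chosen by symbol for their known expression in myeloid cells, lymphoid cells or inflammation and not by a rule on their counts. Earlier results of these data were known when they were chosen. They are 7 of the 2202 microRNA genes in the deposited tables. All 7 had a count in both libraries, and 6 of them, all but Mir146b, had at least 10 counts in both. The material was adrenal gland tissue of male B6CASTF1/J mice aged 36 days, the F1 hybrid of C57BL/6J and CAST/EiJ, with no treatment named in the labels. There were 2 libraries, 1 from each of 2 biological replicates, of RNA under the size limit that the labels give for small RNA. The labels number the animals separately but list a single donor record for both, so differences between these 2 libraries may in part be technical. The p-values of the exact binomial test, described below, take counting noise as the only error and measure no spread between libraries or animals. There is 1 group and no second condition, and every test below compares replicate 2 with replicate 1.

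A microRNA gene is transcribed into a hairpin, from which 2 arms of about the same length can be cut. The arm that is loaded into an Argonaute protein pairs through its seed, bases 2 to 8, with messenger RNAs and lowers their output. Leukocytes carry a characteristic set of microRNAs that control blood cell fate and restrain inflammatory signalling. The adrenal gland is supplied by a dense sinusoidal network and houses resident macrophages, and its steroid output responds to inflammatory signals. A whole gland therefore holds RNA of tissue leukocytes, of blood left in vessels and of gland cells. In such bulk tissue, fewer cells of a type and less RNA per cell cannot be told apart.

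The mature arms below, from the genes other than Mir150, are those usually described as active, with the seed in capitals. They are shown because the counts of each gene are the reads of such arms, and because 2 of the genes share a seed.
miR-142a-5p: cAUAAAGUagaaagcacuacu
miR-142a-3p: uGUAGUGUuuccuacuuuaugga
miR-342-3p: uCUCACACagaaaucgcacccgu
miR-223-3p: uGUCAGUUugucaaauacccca
miR-155-5p: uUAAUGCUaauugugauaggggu
miR-146a-5p: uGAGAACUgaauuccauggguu
miR-146b-5p: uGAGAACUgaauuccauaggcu
The sequences are from RefSeq on GRCm38.p6, the assembly that mm10 names. The arms of Mir146 and Mir146b share the seed GAGAACU and differ, counted from 1 at the 5′ end of miR-146a-5p, by the substitutions G18A and U21C. No other mature name among the 1679 in the table carries the seed of any arm printed here, and none of these arms occurs whole in another of its 1005 hairpins. The table is not complete. Counts refer to hairpins, so arms of 1 hairpin were not separated.

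Replicate 1 held 4494857 sense counts on microRNA genes and replicate 2 held 2078824. Levels are given as CPM, sense counts per 1000000 gene counts of the library, and a count of 0 allows up to 3 counts, or 0.667 and 1.44 CPM. Several lists of marker genes for other cells stood apart between the libraries. The summed level of the 3 erythroid genes Mir451a, Mir144 and Mir486 was 15841 CPM in replicate 1 and 1091 CPM in replicate 2. The 5 miR-200 genes of epithelia summed to 64.7 and 3576 CPM. The pancreas acinar genes Mir217, Mir216a and Mir216b were all at 0 counts in replicate 1 and summed to 677 counts in replicate 2. Of genes known from neuroendocrine tissue such as the adrenal medulla, Mir375 reached 44147 and 51780 CPM, but it is also high in pancreatic islets. The other genes of that list went the other way. Mir7b stood at 4326 and 2129 CPM, Mir7-1 at 233 and 165 CPM, and Mir7-2 at 96.3 and 83.2 CPM. The part of these differences in the levels of the leukocyte genes was not tested.

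The summed sense counts of the 7 genes made up 0.394% of the total in replicate 1, with a 95% interval of 0.388 to 0.400 by the exact Clopper-Pearson method. In replicate 2 they made up 0.508%, with an interval of 0.498 to 0.517. The mean share was 0.451% ± 0.0802 (SD, n = 2). Mir146 had the highest level and Mir146b the lowest, in both libraries. The mean levels of 5 of the 7 lay above 190 CPM, the median of the 333 genes that reached 10 counts in each library. By mean CPM over all annotated genes, Mir146 ranked 60, Mir342 ranked 89, Mir150 ranked 90, Mir142 ranked 119, Mir155 ranked 139, Mir223 ranked 203 and Mir146b ranked 419.

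**Figure D1:**
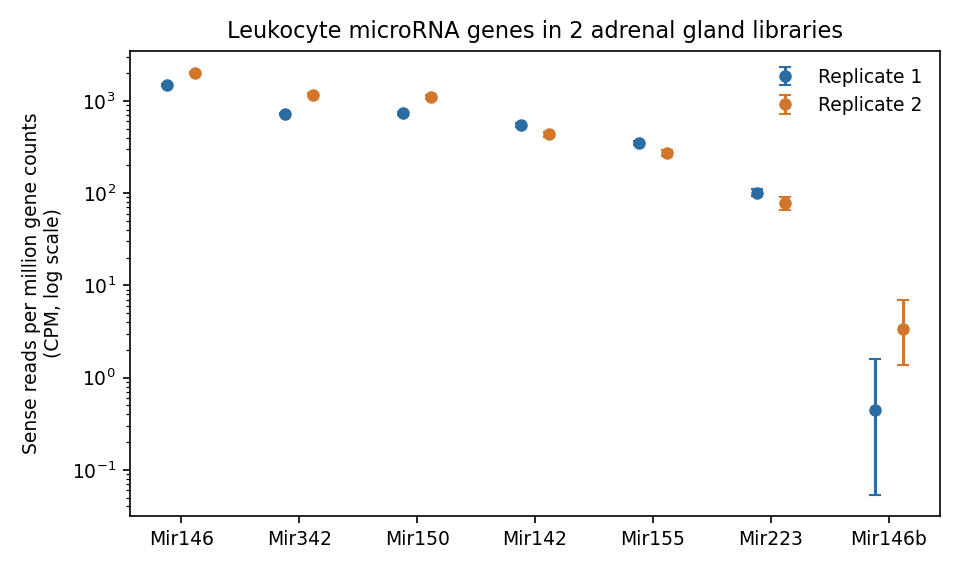
The plot gives the level of each gene in CPM on a log axis, with 1 point for each library and bars for the exact 95% counting interval. Mir146 stands highest at 1479 and 2008 CPM, Mir342 and Mir150 lie side by side, and Mir146b stands at 0.445 and 3.37 CPM with wide intervals.

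Mir142 is the microRNA gene most widely shared by blood cells, since it is expressed throughout the haematopoietic lineage and is needed for the development of several of its cell types. It had 2471 counts, or 550 CPM, in replicate 1 and 905 counts, or 435 CPM, in replicate 2, a mean of 493 ± 80.9 CPM (SD, n = 2). Its level thus stood below those of Mir146, Mir342 and Mir150 in both libraries. Mir142 (ENSMUSG00000105196.1) lies at chr11:87756864-87756927 on the plus strand of mm10, in an intron of the non-coding host gene Mir142hg. The gene Mir142b is annotated over the same bases on the minus strand.

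The Mir142 hairpin is shown because this overlap decides whether its reads can be counted at all. In the line for the hairpin both mature arms are in capitals, and in the line for Mir142b the seed is.
Mir142 hairpin: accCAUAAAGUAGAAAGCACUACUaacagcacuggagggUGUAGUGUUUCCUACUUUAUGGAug
miR-142b: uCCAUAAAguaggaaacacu
The 20 bases of miR-142b are the reverse complement of a stretch of miR-142a-3p. A count that ignores strand cannot assign such reads, and Mir142 stood at 0 counts in the strand-blind column of both libraries. In the sense column all reads went to Mir142, and Mir142b had 0 sense counts in both libraries. Every Mir142 value given here therefore rests on the sense column.

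The genes known from lymphoid cells, Mir150 and Mir342, had like levels. Mir150, which marks mature B and T lymphocytes and restrains the transcription factor Myb, had 3299 counts (734 CPM) in replicate 1 and 2295 counts (1104 CPM) in replicate 2, a mean of 919 ± 262 CPM (SD, n = 2). Mir342, expressed in lymphoid and myeloid cells, had 3243 counts (721 CPM) and 2438 counts (1173 CPM), a mean of 947 ± 319 CPM. Both were higher in replicate 2. Their order was not resolved, since Mir150 stood above Mir342 in replicate 1 and below it in replicate 2.

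Mir150 (ENSMUSG00000065495.1) lies at chr7:45121757-45121821 on the plus strand between genes, 96 bases from the nearest annotated gene, Gm45552. Mir342 (ENSMUSG00000065436.1) lies at chr12:108658620-108658718 on the plus strand in an intron of all 5 annotated transcripts of Evl that span it. Evl encodes an actin regulator of the Ena/VASP family, so Mir342 shares the transcription unit of a gene that is not particular to leukocytes.

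Mir223, the microRNA of neutrophils and monocytes, which limits granulocyte production and activation, was the lowest of the 6 tested genes. It had 455 counts, or 101 CPM, in replicate 1 and 162 counts, or 77.9 CPM, in replicate 2, a mean of 89.6 ± 16.5 CPM (SD, n = 2). The level of Mir142 was 5.43 times that of Mir223 in replicate 1 and 5.59 times in replicate 2. Mir223 (ENSMUSG00000076066.1) lies at chrX:96242817-96242926 on the plus strand, in an exon of both annotated transcripts of the non-coding gene F630028O10Rik that span it.

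Of the genes induced by inflammatory signals, Mir155 and Mir146 were readily counted and Mir146b was nearly absent. Mir155, which rises in activated lymphocytes and macrophages and targets the cytokine signalling inhibitor Socs1, had 1594 counts (355 CPM) and 569 counts (274 CPM), a mean of 314 ± 57.2 CPM (SD, n = 2). It lies at chr16:84714140-84714204 on the plus strand (ENSMUSG00000065397.1), within an exon of both annotated transcripts of its host RNA Mir155hg. Mir146, which is induced by NF-kB and dampens it by targeting Traf6 and Irak1, had 6649 counts (1479 CPM) and 4175 counts (2008 CPM), a mean of 1744 ± 374 CPM. It is also known from cells other than leukocytes, among them endothelium. Mir146 (ENSMUSG00000065601.1) lies at chr11:43374397-43374461 on the minus strand between genes, with the nearest annotated gene, Gm12148, 11021 bases away.

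Mir146b had 2 counts (0.445 CPM, exact 95% interval 0.0539 to 1.61) in replicate 1 and 7 counts (3.37 CPM, 1.35 to 6.94) in replicate 2. It lies at chr19:46342762-46342870 on the plus strand (ENSMUSG00000070127.2), in an intron of the transcript of Mfsd13a that spans it. Of the summed counts of Mir146 and Mir146b, which share the seed shown above, Mir146b took 0.0301% (exact 95% interval 0.00364 to 0.109) in the first library and 0.167% (0.0673 to 0.345) in the second. Nearly all reads assigned to these 2 hairpins thus came from Mir146. Their other arms have different seeds, so reads of the shared seed were not counted apart. Reads that fit both loci would be outside the counts, but the 2 arms differ at the bases named above, so whole arms can be told apart.

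From the highest to the lowest mean CPM the order was Mir146, Mir342, Mir150, Mir142, Mir155, Mir223 and Mir146b. Apart from the exchange of Mir342 and Mir150, the order was the same in both libraries. Per base of the annotated hairpin, which is 64 bases for Mir142 and 110 for Mir223, Mir146 stood at 26.8, Mir150 at 14.1, Mir342 at 9.57, Mir142 at 7.70, Mir155 at 4.83, Mir223 at 0.814 and Mir146b at 0.0175 CPM per base (mean of 2 libraries). On that scale Mir142 stood above Mir342 in replicate 1, at 8.59 against 7.29 CPM per base, and below it in replicate 2, at 6.80 against 11.8 CPM per base. Reads come from the mature arms, whose length does not follow that of the hairpin, and neither scale counts molecules.

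The 6 tested genes divided evenly by direction between the libraries. Mir142, Mir155 and Mir223 were higher in replicate 1, and Mir146, Mir150 and Mir342 were higher in replicate 2. Ratios are replicate 2 over replicate 1 after TMM scaling, a scaling to the bulk of genes, on the log2 scale with a 95% counting interval. The two-sided exact binomial test asks whether the counts of a gene depart from the ratio of scaled library sizes by more than counting noise, with Benjamini-Hochberg adjustment over 333 genes. All 6 passed it, but so did 78.1% of all tested genes, 38.7% as higher in replicate 1 and 39.3% as higher in replicate 2. A call by this test is therefore usual here.

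Mir142 had a log2 ratio of -0.52 (-0.63 to -0.41, adjusted p = 3.35e-21 by the exact binomial test). Mir155 had a log2 ratio of -0.56 (-0.70 to -0.42, adjusted p = 8.70e-16 by the exact binomial test). Mir223 had a log2 ratio of -0.56 (-0.83 to -0.30, adjusted p = 2.50e-05 by the exact binomial test). These 3 genes, of pan-leukocyte, activated and myeloid cells, thus stood 1.44, 1.47 and 1.48 times higher in replicate 1. With a linear correction for the base composition of hairpins, their log2 ratios went to -0.29, -0.35 and -0.54.

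Mir342 had a log2 ratio of 0.52 (0.44 to 0.59, adjusted p = 3.06e-39 by the exact binomial test). Mir150 had a log2 ratio of 0.40 (0.33 to 0.48, adjusted p = 5.77e-24 by the exact binomial test). Mir146 had a log2 ratio of 0.26 (0.20 to 0.31, adjusted p = 1.16e-18 by the exact binomial test). These 3 stood 1.43, 1.32 and 1.19 times higher in replicate 2. With the same correction, the log2 ratio of Mir150, whose hairpin is 63.1% G and C, went to 0.083 (adjusted p = 0.0465 by the exact binomial test). That of Mir146, at 40.0%, went to 0.55, and that of Mir342 to 0.50.

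All 6 ratios were within 2-fold, as were 72.7% of the tested genes. The median log2 ratio was -0.13 over the 6 genes and 0.0054 over all 333. Set against the general difference between the libraries, which edgeR terms a biological coefficient of variation, here 52.2%, none of the 6 was called. That dispersion was estimated from these same 2 libraries, so the test is no independent check, and it may in part be technical. The edgeR exact test with that dispersion gave each of them an adjusted p of 0.987 and called 1.8% of all tested genes. None of the 6 had an unadjusted p under 0.05 by that test. For Mir146b, outside the test, the ratio of replicate 2 over replicate 1 was 6.66 with a counting interval of 1.27 to 65.7.

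**Figure D2:**
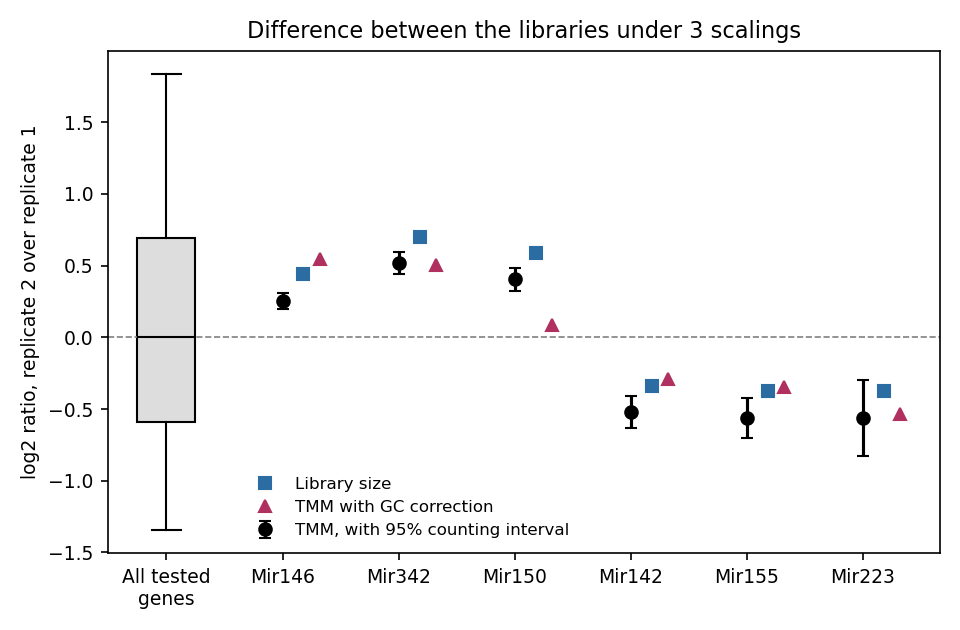
The plot gives the log2 ratio of replicate 2 over replicate 1 for the 6 tested genes after TMM scaling with the 95% counting interval, with library size alone and with a correction for hairpin GC content. The grey box spans the quartiles of all 333 tested genes, -0.59 to 0.69, with whiskers at percentiles 5 and 95, and all 6 genes lie inside the whiskers, 3 above 0 and 3 below.

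The ratio of the counts of 2 genes in 1 library is free of library scaling, and its change from one library to the other restates the difference of the 2 log2 ratios given above. Among the 15 pairs of the 6 tested genes, 3 kept their count ratio from one library to the other within the 95% counting interval. These were the pairs among Mir142, Mir155 and Mir223. Mir142 had 1.55 counts for each count of Mir155 in replicate 1 and 1.59 in replicate 2, a change by a factor of 1.03 (0.906 to 1.16). Mir155 had 3.50 and 3.51 counts for each count of Mir223, a factor of 1.00 (0.815 to 1.24). An interval that holds 1 does not show that a ratio was unchanged, and the interval is widest for pairs with Mir223, the rarest of the 3.

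The 9 pairs that set Mir146, Mir342 or Mir150 over one of these 3 genes shifted by factors of 1.71 to 2.11. Mir150 had 1.34 counts for each count of Mir142 in replicate 1 and 2.54 in replicate 2, a factor of 1.90 (1.73 to 2.09). Mir342 over Mir223 went from 7.13 to 15.05, a factor of 2.11 (1.75 to 2.56). Mir146 over Mir155 went from 4.17 to 7.34, a factor of 1.76 (1.58 to 1.95). Among Mir146, Mir342 and Mir150 the shifts were smaller, and Mir342 over Mir150 went from 0.983 to 1.06, a factor of 1.08 (1.00 to 1.17). With the correction for hairpin GC content, added for pairs after seeing the data, the 9 factors across ran from 1.29 for Mir150 over Mir142 to 2.12 for Mir146 over Mir223. That correction took Mir146 over Mir150 from a factor of 0.903 to 1.38, so the shifts within and across the triplets then overlapped. The division into these triplets was seen in the data and is a description with no test.

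Within the summed counts of the 7 genes, Mir146 took 37.5% (exact 95% interval 36.8 to 38.3) in the first library and 39.6% (38.6 to 40.5) in the second. Mir342 took 18.3% and 23.1%, and Mir150 took 18.6% and 21.8%. Mir142 took 14.0% (13.4 to 14.5) and 8.58% (8.05 to 9.13). Mir155 took 8.999% and 5.39%, and Mir223 took 2.57% and 1.54%. The summed share of Mir142, Mir155 and Mir223 was 25.5% in replicate 1 and 15.5% in replicate 2.

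**Figure D3:**
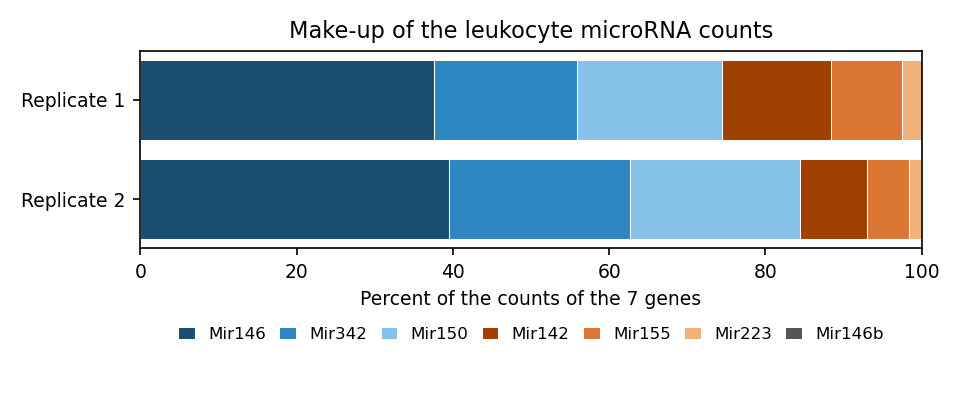
The bars divide the summed counts of the 7 genes in each library into the percent held by each gene. Mir146 holds 37.5% and 39.6%, and the orange segments of Mir142, Mir155 and Mir223 are together wider in replicate 1, at 25.5%, than in replicate 2, at 15.5%; Mir146b is too small to see.

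Of the 3 erythroid genes, 2 were called higher in replicate 1 by the exact binomial test and 1 was not called. The edgeR exact test called only 1 of the 3, Mir451a. Mir142, Mir155 and Mir223 were also called higher in replicate 1 by the exact binomial test, as were 38.7% of all tested genes. Mir451a, of maturing red cells, stood at 14362 CPM in replicate 1 and 903 CPM in replicate 2, a log2 ratio of -4.18 (-4.24 to -4.11, edgeR exact adjusted p = 0.0454). Its partner in the same cluster, Mir144, stood at 1441 and 153 CPM, a log2 ratio of -3.42 (-3.58 to -3.25, edgeR exact adjusted p = 0.151). Mir486, also of red cells, stood at 38.7 and 35.1 CPM, a log2 ratio of -0.33 (-0.74 to 0.08), and did not pass the exact binomial test. Beside these, Mir223 stood at 101 and 77.9 CPM. The part of red cell or pancreas RNA in the ratios of the leukocyte genes was not tested.

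**Figure D4:**
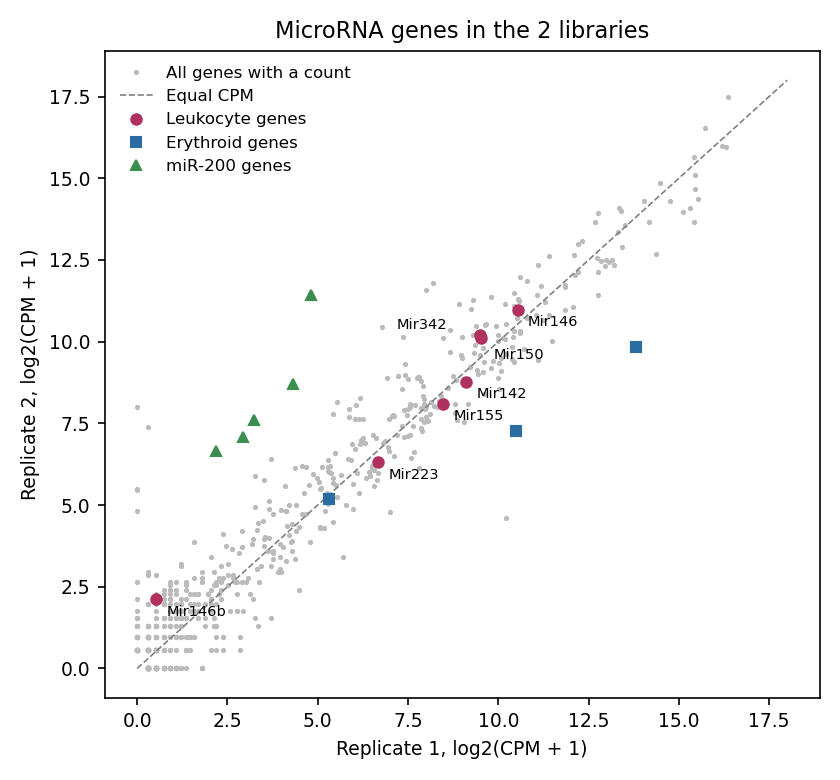
Each point is a gene with a count in either library, placed by log2(CPM + 1) in replicates 1 and 2, with a dashed line at equal CPM. The leukocyte genes other than Mir146b, at 0.445 and 3.37 CPM, lie close to the line, whereas Mir451a and Mir144 lie below it, at 14362 and 1441 CPM in replicate 1, and the miR-200 genes lie above it.

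Genes with other known roles in immune cells were compared as 3 lists. Of 9 genes linked to inflammation and NF-kB, 5 were tested and all 5 were higher in replicate 2 by the exact binomial test, with a median log2 ratio of 0.96, against 39.3% higher in replicate 2 and a median of 0.0054 over all tested genes. The highest genes of the list were Mir21a, induced in many activated and injured tissues, at 6588 and 12826 CPM (log2 ratio 0.78) and Mir125a at 4733 and 8070 CPM (log2 ratio 0.58). Mir132, which responds to cAMP signalling and inflammation, had the largest ratio among the tested genes of the list, at 629 and 2465 CPM (log2 ratio 1.79). Mir146 was also higher in replicate 2, whereas Mir155 was not. All of these tested genes are also expressed outside leukocytes.

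Of 19 genes linked to lymphocyte development and activation, 15 were tested. Of these, 9 were higher in replicate 1, 4 were higher in replicate 2 and 2 were not called, with a median log2 ratio of -0.46. The count minimum left out Mir181a-2 (41 and 3 counts), Mir181b-1 (39 and 4), Mir19a (16 and 1) and Mir19b-1 (9 and 2). Each of them had a higher CPM in replicate 1. The highest genes of this list were Mir29a at 5085 and 8649 CPM (log2 ratio 0.58) and Mir28a at 2733 and 1808 CPM (log2 ratio -0.78). Mir326 had the largest ratio among its tested genes, at 71.2 and 309 CPM (log2 ratio 1.93). Of 10 genes linked to myeloid differentiation, all were tested, with 5 higher in replicate 1, 4 higher in replicate 2, 1 not called and a median log2 ratio of -0.15. The shares over all tested genes were 38.7% for replicate 1 and 39.3% for replicate 2, so calls in both directions are common. The highest were Mir23a at 40207 and 17457 CPM (log2 ratio -1.39) and Mir322 at 20951 and 6610 CPM (log2 ratio -1.85), and Mir30b had the largest ratio, at 290 and 3571 CPM (log2 ratio 3.44). No gene of the 3 lists passed the edgeR exact test. These lists hold genes with copies at several loci, whose shared reads are outside the counts.

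By distance in log2(CPM + 1) over the 2 libraries, the gene nearest to Mir150 among 332 others was Mir342, and the gene nearest to Mir342 was Mir150, at a distance of 0.0906. Mir423 was nearest to Mir146 (0.0695), Mir7-2 to Mir223 (0.117), Mirlet7a-1 to Mir155 (0.135) and Mir330 to Mir142 (0.292). With only 2 libraries, this likeness says that a gene had nearly the same pair of levels and no more.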

How the data were processed

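MicroRNA-seq of 2 adrenal gland libraries was analysed. The authors deposited raw counts of reads for each microRNA gene, for both strands together and for each strand. The build (mm10) and annotation (GENCODE M21) are those named in the accompanying text. Which aligner and counting program were run is not given in the sources used here. The sense column was used. Reads unmapped, mapping to several places or outside genes were left out. They made up 26.4%, 29.8% and 7.16% of replicate 1, and 51.9%, 21.5% and 6.46% of replicate 2.

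Genes, coordinates (counted from 1), overlaps and hairpin GC content came from GENCODE M21, and sequences from RefSeq. Exact copies of arms were searched in the RefSeq hairpins only. CPM, TMM scaling, exact binomial tests with Benjamini-Hochberg adjustment at 0.05 and a minimum of 10 counts in both libraries, and the edgeR exact test with the common dispersion were computed here. Changes of count ratios between genes have conditional exact 95% intervals. Counting error is all that the intervals and floors cover, because PCR duplicates cannot be recognised. The binomial test was first run on simulated data with counting noise as the only error. Such data cannot check the test where libraries differ by more than counting noise.

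The members, lists and tests were chosen with earlier results of these data known. The named genes are the 7 members, genes sharing a seed, overlapping or hosting them, and the nearest gene in level. They also include the 2 highest genes and the largest tested ratio of each immune list. List genes outside the test and markers of other cells are named too. The comparison of pairs was added after seeing the data. Alternatives covered scaling, count minimum, strand, GC content, hairpin length, test and single libraries. Software was R 4.3.3, edgeR 4.0.16, DESeq2 1.42.0, Python 3.11.15, SciPy 1.17.1, NumPy 2.4.6, pandas 2.3.3 and matplotlib 3.10.9.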

Additional observations from a re-analysis of the deposited data

Results flagged for a closer look

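Mir150 had 4 counts on the strand opposite to its hairpin in replicate 1, beside 3299 sense counts, which is above the 3 counts that a count of 0 allows. It had 0 such counts in replicate 2, and the other 6 leukocyte genes had 0 in both libraries.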

How the results depend on the processing

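The direction of all 6 tested genes and their calls by the exact binomial test held with a count minimum of 5, 50 or none, with library size, with DESeq2 size factors and with the GC correction, and in the strand-blind column for the 5 genes counted there. With the edgeR exact test, 0 leukocyte genes were called, 0 in either direction, and 6 genes in all, 2 higher in replicate 1 and 4 higher in replicate 2. Library size in place of TMM moved the median log2 ratio of all genes by 0.19 and the split of calls to 112 and 149. Without a count minimum, the ratio of Mir146 fell to 0.087, and Mir146b was called higher in replicate 2 (adjusted p = 0.0415 by the exact binomial test, from 2 and 7 counts). The summed share of the 7 genes lay between 0.394% and 0.508% with 1 library left out. It was 0.494% in the strand-blind column, which lacks Mir142, and 0.525% without Mirlet7b, the highest gene. The gene totals of the strand-blind column were smaller than the sense totals, at 3700022 counts in replicate 1 and 1676236 in replicate 2. On these totals the mean level of Mir146 was 2144 CPM, against 1744 CPM in the sense column, and Mir142 stood at 0. With 2 libraries, differences between animals, tissue collection and preparation cannot be told apart.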
